A study of Homo sapiens with 54 samples.

Results

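Knockdown of JUN without hormone was followed in 6 of the 54 RNA sequencing libraries of this series. They are the 3 libraries of BT549 cells that received siRNA against JUN and vehicle (siJUN) and the 3 that received a control siRNA and vehicle (siCtl), taken by their titles within the experiment on the transcription factor AP-1, with libraries of the same replicate number treated as a pair. BT549 is an established cell line from a triple-negative breast cancer, a class that lacks the oestrogen and progesterone receptors and ERBB2 amplification, and all groups used here are of this line with no other genetic change in the labels. Context came from 3 further groups of 3 libraries in the same experiment: siRNA against FRA1 with vehicle (siFRA1), and siCtl or siJUN with 500 nM dexamethasone (DEX), a glucocorticoid. The remaining group, siRNA against FRA1 with DEX, entered the fit and the search for genes that follow JUN but is compared with nothing here. The labels do not state the number of siRNA sequences against JUN, how long the knockdown lasted or how long DEX was given in this experiment, so each siRNA is here 1 reagent of unknown make-up.

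JUN is a basic leucine zipper (bZIP) protein that binds DNA as a dimer, most often with a FOS family partner such as FRA1 (encoded by FOSL1), and such dimers are called AP-1. AP-1 binds the TPA response element and related sequences in promoters and enhancers and is known in carcinoma cells for the control of proteases, matrix and migration genes and of genes that answer growth factors. Interferon response genes, which are among the rises below, are activated by STAT2 and IRF proteins, which bind the interferon-stimulated response element, and many of their products restrict viruses or sense their RNA.

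The 6 libraries held between 10186607 and 11896546 counts on genes, and 13658 of 26517 gene symbols passed the filter on low counts in the experiment. Levels are in CPM, which are counts scaled to a common library total. Differences are fitted log2 fold changes (log2FC) with a standard error (SE) derived from the test statistic. A gene was called higher or lower at an adjusted p under 0.05 by edgeR's quasi-likelihood test with the replicate pairs as a block. One siJUN library, replicate 3, stood apart: on the axis that held 53% of the variance among the 6 libraries it lay at 4.98, against 17 and 16.1 for the other siJUN libraries and -10.9 to -14.3 for siCtl. Replicate 2 had low interferon response levels in every group, as given below. Of 16 markers of other cell types 4 passed the filter, and edgeR and DESeq2 called 0 of them, with 0 at an unadjusted p under 0.05, and 3 of the others (CD3E, CDH5 and HBB) had no count in any group; the summed level of the list was 29.1 to 34.4 CPM in siCtl and 30.8 to 39.2 CPM in siJUN. Of the breast line markers EGFR and VIM were well expressed, while ESR1 and PGR did not pass the filter. As in any bulk sample, fewer cells of a type and less RNA per cell cannot be told apart.

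JUN itself (chromosome 1, 58780788 to 58784327, minus strand, GRCh38) was measured first, since it checks the labels. It was at 266.7, 285 and 289 CPM in siCtl and 90.8, 92.3 and 114 CPM in siJUN (log2FC -1.51, SE 0.141, adjusted p = 1.47e-05). Every siJUN library lay far below every siCtl library, and siJUN replicate 3 kept the most JUN. In siFRA1 cells JUN was at 277, 261.4 and 274.1 CPM, within reach of siCtl (log2FC -0.05).

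Most of the other bZIP genes had small differences beside that of JUN. Of 23 tested genes of AP-1 and related bZIP proteins 5 were called higher and 3 lower, with a median log2FC of 0.11, while over all genes 9.05% were called higher and 9.62% lower and the median was -0.01. FOSL1 was at 165, 185 and 166 CPM in siCtl and 202, 215 and 144 CPM in siJUN and was not called (log2FC 0.11, SE 0.117, adjusted p = 0.609). FOSL2 (log2FC -0.16, adjusted p = 0.0606), FOS (0.40, 0.308) and ATF3 (0.21, 0.19) were not called either. The groups of all 4 genes overlapped.

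Among the remaining members MAFK, a small MAF partner gene, fell by 0.35 on the log2 scale (adjusted p = 0.0128, 0.0936 without the pairing), and its call was lost without siCtl replicate 2 (0.123) or siJUN replicate 2 (0.229). BATF2, an interferon-inducible bZIP gene, rose from 0.997, 0.329 and 1.298 CPM to 8.31, 3.94 and 4.34 CPM (log2FC 2.64, SE 0.321, adjusted p = 5.07e-08). NFE2L2, which encodes the oxidative stress factor NRF2, was at 105, 101 and 102 CPM in siCtl and 138, 129 and 129 CPM in siJUN, a rise of 0.36 with no overlap. JDP2, a repressor of AP-1, was also higher (0.69, adjusted p = 2.96e-04, 0.243 without the pairing). The JUN paralogs JUNB (0.22) and JUND (0.26) were called with overlapping groups, and those calls were lost without the pairing (0.572 and 0.538). They were also lost without siCtl replicate 1 (0.093 and 0.0964) or siJUN replicate 1 (0.125 and 0.126), and for JUND without siCtl replicate 2 (0.0533), siCtl replicate 3 (0.0577) or siJUN replicate 3 (0.115).

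**Figure D1:**
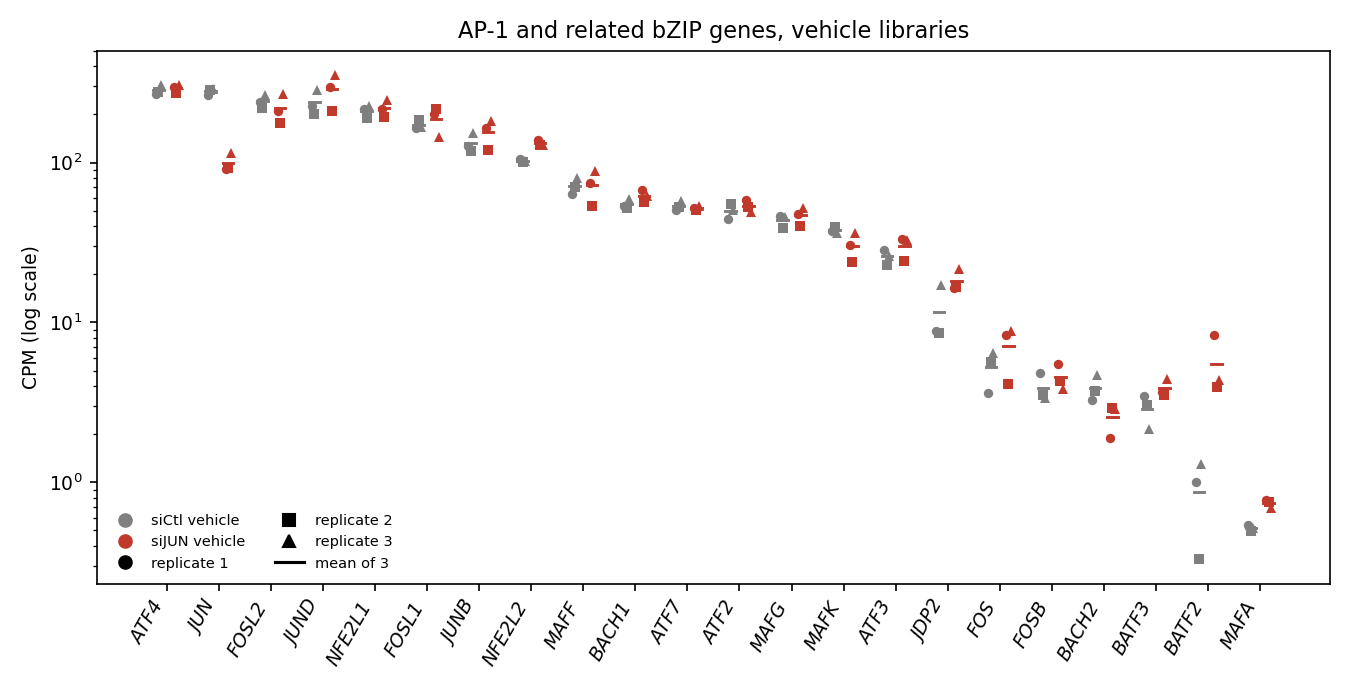
CPM on a log scale of 22 tested AP-1 and related bZIP genes in the 3 siCtl (grey) and 3 siJUN (red) vehicle libraries, 1 symbol per replicate and a line at the mean. JUN lies lower and BATF2 higher in all siJUN libraries, while FOSL1 and ATF4 overlap.

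Of the kinases that act on JUN and their scaffolds, 19 genes were tested and 2 rose and 1 fell, 15.8% called beside 18.7% of all genes, so the share is no higher than the background. MAPK8IP1, which encodes the JNK scaffold JIP1, was at 59.7, 48.6 and 61.3 CPM in siCtl and 33.2, 35.2 and 45.4 CPM in siJUN (log2FC -0.58, SE 0.0872, adjusted p = 2.89e-06), without overlap. MAPK8, the JNK1 gene (0.30, adjusted p = 0.0319), and MAP3K1, an upstream kinase gene (0.47, 0.017), rose, but neither was called without the pairing (0.113 and 0.0689). Leaving out siCtl replicate 2 also ended both calls (0.0619 and 0.138), as did leaving out siCtl replicate 3 (0.215), siJUN replicate 1 (0.256) or siJUN replicate 3 (0.0582) for MAPK8 and siCtl replicate 1 (0.137) or siJUN replicate 2 (0.145) for MAP3K1.

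Across all genes 1236 were called higher and 1314 lower, of which 187 and 74 by at least 2-fold. Without the pairing 503 were higher and 429 lower. The 15 largest of each within the limits on level and overlap are described first.

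Of the 15 largest rises 2, RSAD2 and IFIT2, are on the list of interferon response genes. GBP4, an interferon-inducible guanylate-binding protein gene (chromosome 1, 89181148 to 89198932), was at 16.04, 9.20 and 9.78 CPM in siCtl and 109.7, 74.1 and 49.9 CPM in siJUN, the largest rise (log2FC 2.73, SE 0.221, adjusted p = 3.25e-06). In GBP4 siJUN replicate 1 was the highest library. By the rule for these 15 genes each siJUN library was above each siCtl library. RSAD2, whose product viperin makes an antiviral nucleotide, was at 109, 47.5 and 97.8 CPM in siCtl and at 332 ± 84.4 CPM (SD, n = 3) in siJUN (log2FC 2.02, SE 0.219, adjusted p = 6.01e-05). IFIT2, which encodes a protein that restricts translation of foreign RNA, was at 110.2, 50.4 and 85.6 CPM in siCtl and 474, 264.1 and 251.7 CPM in siJUN (log2FC 2.02, SE 0.189, adjusted p = 1.80e-05). In both genes siCtl replicate 2 was the lowest library. GBP5 (1.98), TRIM22 (2.03), RTP4 (1.97), APOL1 (1.82), the chemokine gene CCL5 (1.85), BATF2 (2.64) and the ETS repressor gene ETV7 (2.30) are not on that list and are known, as background, to be inducible by interferon. MLKL, the executor of necroptosis, was at 1.81, 0.493 and 1.56 CPM in siCtl and 7.79, 4.44 and 3.16 CPM in siJUN (log2FC 1.97, SE 0.321, adjusted p = 1.18e-05). Every gene of this paragraph but MLKL was also called higher in siFRA1 than in siCtl, from RSAD2 (log2FC 0.87) to BATF2 (2.04). The genes were chosen against the same siCtl libraries, so these siFRA1 calls are tilted in advance. Over all genes 12.5% were called higher with siFRA1.

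The remaining 4 of the 15 have other known roles or little known ones. RGS5, a regulator of G protein signalling that marks pericytes, was at 4.89, 6.33 and 4.59 CPM in siCtl and 19.3, 28.3 and 18.5 CPM in siJUN (log2FC 2.06, SE 0.144, adjusted p = 1.24e-13). GENCODE also lists an overlapping gene of antisense type under this symbol, so the counts may not be of the coding gene alone. SULF1, an extracellular sulfatase gene that edits heparan sulfate, was at 4.62, 3.29 and 6.75 CPM in siCtl and 24.1, 16.5 and 20.7 CPM in siJUN (log2FC 2.06, SE 0.211, adjusted p = 2.40e-07). NFE2L3, a bZIP gene related to NRF2, rose by 1.92, with 32.9, 28.9 and 11.04 CPM in siJUN, the third library being far below the others. KLHDC7B, a kelch domain gene, rose by 1.82, and its call was lost without the pairing (adjusted p = 0.105). The siFRA1 log2FC against siCtl was 1.05 in RGS5, 2.27 in SULF1, 2.06 in NFE2L3 and 1.91 in KLHDC7B, each called higher. The siCtl libraries that chose these 4 genes are used here too. Of these genes only RGS5 was called higher in siJUN than in siFRA1.

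The largest falls were of genes of several kinds. ADAMTS14, which encodes a procollagen protease, was at 18.5, 14.8 and 24.1 CPM in siCtl and 4.02, 3.52 and 12.9 CPM in siJUN (log2FC -1.56, SE 0.187, adjusted p = 9.89e-07, 0.0629 without the pairing). It fell much less in replicate 3 than in the others. COL13A1, a transmembrane collagen gene, was at 8.07, 7.31 and 8.57 CPM in siCtl and 2.83, 2.85 and 2.46 CPM in siJUN (log2FC -1.56, SE 0.199, adjusted p = 1.44e-07). GEM, a small GTPase gene that acts on calcium channels and the cytoskeleton, was at 62.6, 54.4 and 54.0 CPM in siCtl and 19.5, 18.8 and 25.3 CPM in siJUN (log2FC -1.45, SE 0.135, adjusted p = 3.62e-08). RSPO2, which encodes an amplifier of Wnt signals, was at 118, 115 and 111 CPM in siCtl and 47.4, 39.5 and 44.6 CPM in siJUN (log2FC -1.39, SE 0.0761, adjusted p = 1.96e-15). HAS3, a hyaluronan synthase gene (chromosome 16, 69105564 to 69118719), was at 254.4, 258.2 and 278 CPM in siCtl and 114, 93.8 and 119 CPM in siJUN (log2FC -1.28, SE 0.0564, adjusted p = 2.14e-19). By the rule for the 15 genes no siJUN library reached a siCtl library.

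NPTX1, which encodes a secreted pentraxin, was at 36.9, 45.0 and 29.3 CPM in siCtl and 14.1, 17.5 and 10.7 CPM in siJUN (log2FC -1.40, SE 0.110, adjusted p = 2.70e-12). BAALC, a gene known from acute leukaemia, was at 34.1, 36.7 and 39.3 CPM in siCtl and 12.8, 14.0 and 17.3 CPM in siJUN (log2FC -1.33, SE 0.115, adjusted p = 2.75e-11). Both genes are known mainly from the nervous system. So are CDH18, a cadherin gene (-1.45), SHANK2, a synaptic scaffold gene (-1.41), and FAM196A (-1.22), and KCNJ12, a potassium channel gene (-1.23), is known from muscle and heart. TSPAN13 (-1.22), a tetraspanin gene, MATN2 (-1.22), which encodes the matrix protein matrilin 2, and PHLDA3 (-1.21), a p53 target that restrains AKT, complete the list with JUN. MATN2 was not called without the pairing (adjusted p = 0.128). Against siCtl, siFRA1 also lowered NPTX1 (log2FC -1.54), BAALC (-2.09), SHANK2 (-1.30), FAM196A (-1.13), PHLDA3 (-1.07), MATN2 (-0.99), CDH18 (-0.73) and TSPAN13 (-0.64). COL13A1 (-1.07), GEM (-1.10), RSPO2 (-0.87) and HAS3 (-0.39) were called lower in siFRA1 too. ADAMTS14 (-0.09), KCNJ12 (0.02) and JUN were not called in siFRA1. The falls too were chosen against the siCtl libraries that siFRA1 is compared with, so these calls are tilted in advance. Over all genes 12% were called lower with siFRA1.

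**Figure D2:**
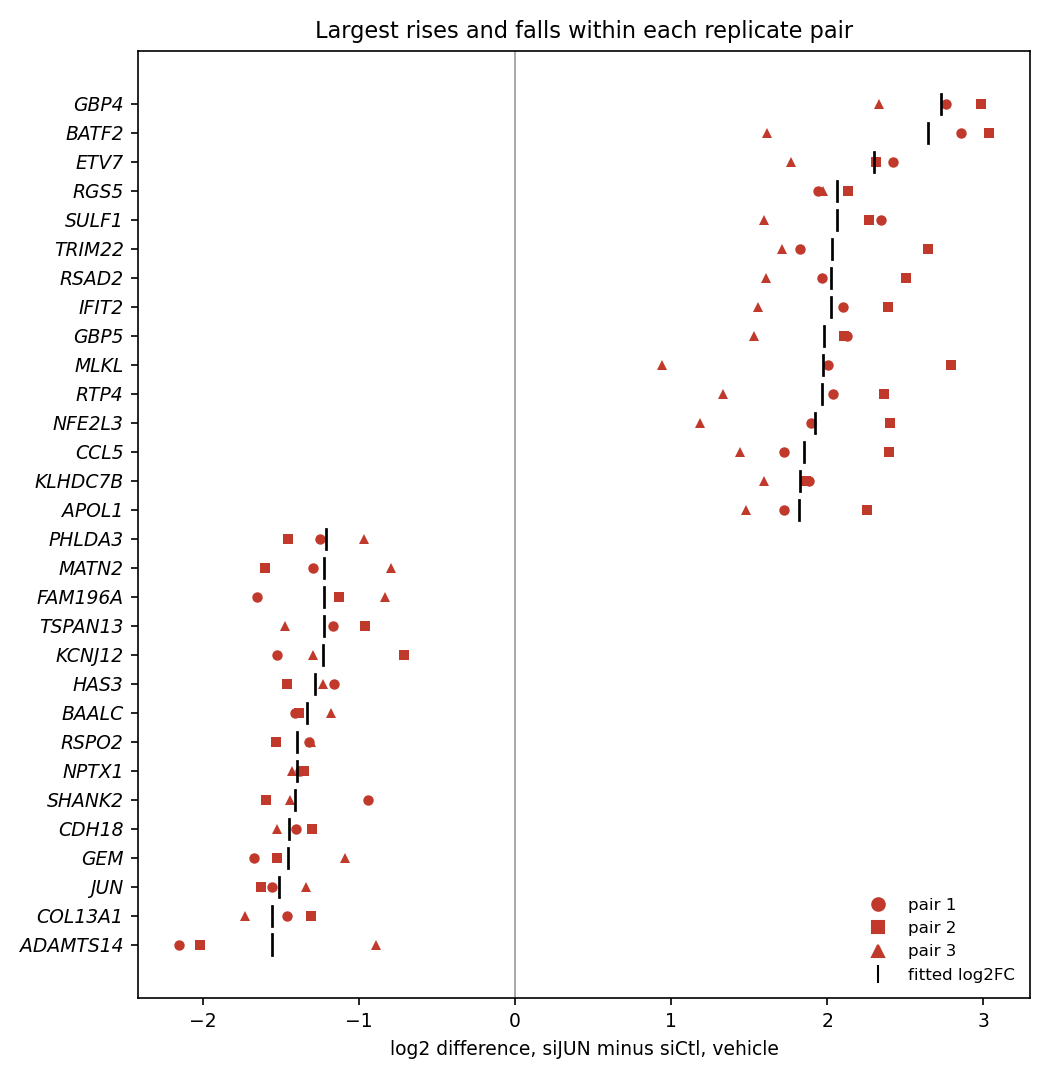
Log2 difference between the siJUN and the siCtl library of each replicate pair (symbols) and the fitted log2FC (black line) for the 15 largest rises and the 15 largest falls that met the limits on level and overlap. All 3 pairs lie on the same side of 0 in each gene, and pair 3 has the smallest difference in 14 of the 15 rises.

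Interferon response genes rose as a whole. All 35 genes of the list passed the filter, and 35 were called higher against 9.05% of all genes, with log2FC between 0.27 and 2.02 and a median of 1.07. In 32 of them the siJUN libraries lay above all siCtl libraries, against 11.9% of all genes. Their summed level was 7848, 4188 and 7644 CPM in siCtl and 16370, 12360 and 13510 CPM in siJUN. Replicate 2 was the lowest siCtl library in 35 of the 35 genes, and the median difference within pairs was 0.99, 1.501 and 0.78. Without the pairing 17 of the 35 were called, and leaving out 1 library at a time left 31 to 35 called, with medians of 0.95 to 1.19.

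Genes of factors that carry the signal rose. STAT2, which is activated by type I interferons, was at 64.9, 39.4 and 67.1 CPM in siCtl and 124, 92.9 and 113 CPM in siJUN (log2FC 0.96, SE 0.0913, adjusted p = 1.63e-08, 0.0626 without the pairing), and its groups did not overlap. IRF1 was at 101, 87.2 and 98.0 CPM in siCtl and 231, 157 and 185 CPM in siJUN (log2FC 0.99, SE 0.0911, adjusted p = 7.10e-08), and IRF7, the master factor of interferon alpha genes, rose by 0.69. IRF9, the third subunit of the ISGF3 complex, rose least (0.27, adjusted p = 0.00614) and its groups overlapped. IRF9 was chosen for mention after its values were seen. The call of IRF9 (adjusted p = 0.136) was lost without the pairing.

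Sensors of viral RNA and their effectors rose with them. DDX58, which encodes RIG-I, was at 245.4, 148 and 236 CPM in siCtl and 791, 566 and 567 CPM in siJUN (log2FC 1.64, SE 0.159, adjusted p = 2.48e-05). IFIH1, which encodes MDA5, was at 117, 64.4 and 105 CPM in siCtl and 319, 229.9 and 214 CPM in siJUN (log2FC 1.44, SE 0.157, adjusted p = 6.01e-05). TLR3, an endosomal receptor for double-stranded RNA, was at 7.07, 4.11 and 5.02 CPM in siCtl and 23.1, 14.9 and 14.3 CPM in siJUN (log2FC 1.70, SE 0.264, adjusted p = 1.83e-04). All 3 were higher in each siJUN library than in any siCtl library. EIF2AK2, the PKR kinase gene, rose by 0.59 (adjusted p = 0.00559). In the list of 17 RNA interference and sensor genes 5 rose and 2 fell, 41.2% called beside 18.7% of all genes. The fifth rise was the Argonaute gene AGO4 (0.32), whereas AGO2 was at -0.01 and DICER1 at 0.10 without a call. The falls were TNRC6B (-0.27) and the microprocessor gene DGCR8 (-0.18), and 1 fall was left without siCtl replicate 1, 2 or 3 or siJUN replicate 1 or 3. HERC5, the ligase for ISG15, was at 112, 69.0 and 109 CPM in siCtl and 309, 221 and 247.5 CPM in siJUN (log2FC 1.45, SE 0.118, adjusted p = 1.39e-06). The calls of AGO4 (adjusted p = 0.287), DGCR8 (0.152) and ISG15 (0.248) were lost without the pairing.

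Promoter sequence is shown for 4 genes of this kind so that the letters of the element that STAT and IRF complexes read can be seen, and the 4 were chosen after their matches were seen. Promoter windows of 250 bases before to 50 bases after the start were found in RefSeq (GRCh38.p14) for 10722 of the 13658 tested genes. The core searched was GAAA, any 2 bases and GAAA again, on either strand, with overlapping matches counted. Only the 250 bases before the start are printed, 5′ to 3′ in the direction of the gene, with the matches in capitals.
HERC5 (chr4:88456869-88457118, plus strand): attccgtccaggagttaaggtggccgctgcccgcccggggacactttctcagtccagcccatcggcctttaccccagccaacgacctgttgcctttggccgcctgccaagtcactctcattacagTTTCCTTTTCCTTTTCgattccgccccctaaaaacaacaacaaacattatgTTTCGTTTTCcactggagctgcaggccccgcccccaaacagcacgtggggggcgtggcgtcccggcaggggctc
IFIH1 (chr2:162318685-162318934, minus strand): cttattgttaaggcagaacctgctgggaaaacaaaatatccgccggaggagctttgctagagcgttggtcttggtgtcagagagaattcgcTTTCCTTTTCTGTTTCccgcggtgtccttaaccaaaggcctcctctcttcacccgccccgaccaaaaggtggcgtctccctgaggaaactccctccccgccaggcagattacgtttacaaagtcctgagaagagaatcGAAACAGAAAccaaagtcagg
RTP4 (chr3:187368135-187368384, plus strand): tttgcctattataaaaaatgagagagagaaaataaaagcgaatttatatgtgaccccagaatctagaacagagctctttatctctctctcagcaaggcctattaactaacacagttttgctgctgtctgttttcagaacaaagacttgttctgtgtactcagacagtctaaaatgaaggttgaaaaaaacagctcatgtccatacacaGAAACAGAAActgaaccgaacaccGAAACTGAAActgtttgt
CXCL10 (chr4:76023498-76023747, minus strand): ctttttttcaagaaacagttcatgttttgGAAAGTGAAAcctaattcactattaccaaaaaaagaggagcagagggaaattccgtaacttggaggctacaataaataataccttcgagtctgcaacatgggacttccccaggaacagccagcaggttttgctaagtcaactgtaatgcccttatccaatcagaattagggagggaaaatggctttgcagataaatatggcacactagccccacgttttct
The matches begin 125, 119 and 74 bases before the start in HERC5, 159, 153 and 21 bases before it in IFIH1, 42 and 18 bases in RTP4 and 221 bases in CXCL10. The core was found in 2.84% of all 10722 windows, in 9.58% of the 929 windows of genes called higher and in 1.8% of the 1058 of genes called lower. It was in 16 of the 28 interferon list genes with a window and in 23.1% of the 121 windows of genes called higher by at least 2-fold. Outside the interferon list it was in 8.1% of 901 windows of genes called higher. A match is a description of these letters and shows no binding.

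**Figure D3:**
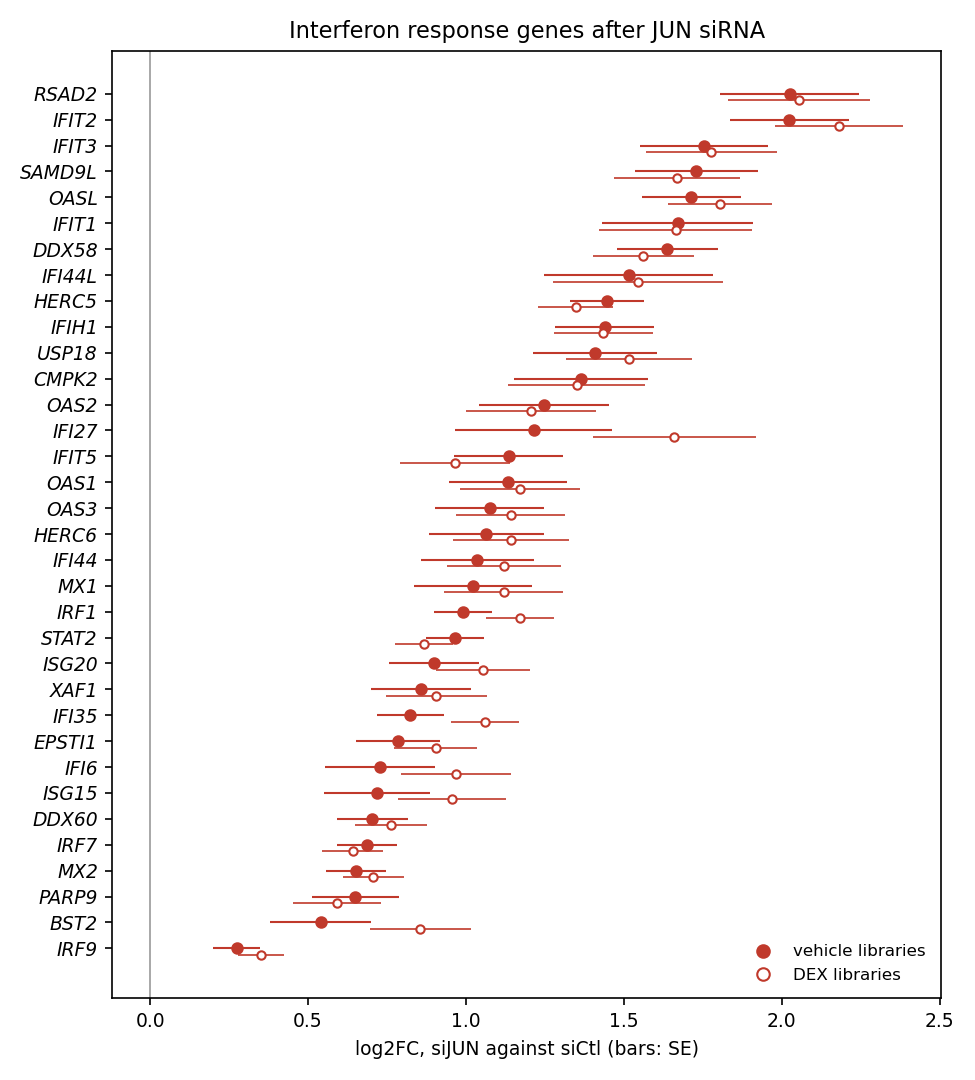
Fitted log2FC of siJUN against siCtl for 34 interferon response genes in the vehicle libraries (filled) and in the DEX libraries (open), with bars of 1 SE. Every gene lies above 0 in both, from IRF9 at the bottom to RSAD2 at the top.

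Some cytokine and chemokine genes rose as well, while most of those tested were not called. CXCL10, which draws T cells, was near the limit of detection in siCtl, at 0.453, 0.246 and 0.346 CPM in siCtl and 5.31, 4.53 and 2.56 CPM in siJUN (log2FC 3.54, SE 0.424, adjusted p = 3.78e-08). CCL5 was at 20.5, 10.4 and 17.1 CPM in siCtl and 68.2, 55.7 and 46.8 CPM in siJUN (log2FC 1.85, SE 0.142, adjusted p = 5.27e-09), without overlap. CSF1, the macrophage growth factor gene, rose by 0.52 (adjusted p = 3.92e-08) and CXCL16 by 0.82. Of 19 tested cytokine and chemokine genes 7 rose and 1 fell, TSLP (-1.05), 42.1% called beside 18.7% of all genes. The number higher was 4 without siCtl replicate 1 or siJUN replicate 1 and 3 without the pairing, and the fall was not called without siCtl replicate 1 or 2 or siJUN replicate 1 or 2. The neutrophil chemokine genes CXCL1 (0.14), CXCL2 (-0.08) and CXCL8 (0.18) were not called. The calls of CXCL16 (adjusted p = 0.128) and TSLP (0.0777) were lost without the pairing.

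Of 16 NF-kB subunit and feedback genes 5 rose and 0 fell by edgeR's test, 31.2% called beside 18.7% of all genes. DESeq2 called 0 lower too, and 1 was lower at an unadjusted p under 0.05. NFKB2, which encodes the p100 precursor of the noncanonical pathway, was at 74.1, 81.3 and 73.0 CPM in siCtl and 119.7, 107 and 118 CPM in siJUN (log2FC 0.59, SE 0.0649, adjusted p = 5.87e-09). TNFAIP2 was at 1.81, 1.73 and 1.47 CPM in siCtl and 6.08, 4.19 and 6.21 CPM in siJUN (log2FC 1.70, SE 0.274, adjusted p = 1.03e-05), and BIRC3, an inhibitor of apoptosis, at 6.34, 10.02 and 7.36 CPM in siCtl and 26.5, 29.2 and 15.9 CPM in siJUN (log2FC 1.57, SE 0.206, adjusted p = 3.76e-05). The groups did not overlap in these 3 genes. The inhibitor gene NFKBIA rose by 0.33, while RELA (0.15) and NFKB1 (0.00) were not called.

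In the BCL2 and death gene list 6 of 18 rose and 1 fell, 38.9% called beside 18.7% of all genes. The fall was BAD (-0.31), whose call was lost without siCtl replicate 1 or 3 or siJUN replicate 1 or 2. PMAIP1, which encodes the pro-death protein NOXA, was at 17.6, 14.3 and 15.8 CPM in siCtl and 46.8, 36.6 and 31.8 CPM in siJUN (log2FC 1.27, SE 0.116, adjusted p = 9.25e-11). BCL2L1, which encodes the survival protein BCL-XL, was at 44.0, 48.4 and 46.2 CPM in siCtl and 68.7, 73.5 and 56.1 CPM in siJUN (log2FC 0.52, SE 0.0828, adjusted p = 9.78e-06). Both genes separated the groups, and CFLAR, a brake on caspase-8, rose too (0.29). The death ligand gene TNFSF10 (TRAIL) rose from 0.00, 0.246 and 0.606 CPM to 3.00, 1.01 and 2.07 CPM (adjusted p = 0.00646, 0.135 without the pairing). The call of BAD (adjusted p = 0.0825) was lost without the pairing.

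Extracellular matrix genes fell more often than they rose. Of 32 tested collagen and matrix genes 15 fell and 5 rose (median log2FC -0.17), against 9.62% and 9.05% of all genes. FBN2, which encodes the microfibril protein fibrillin 2, was at 133, 128 and 129 CPM in siCtl and 54.1, 59.3 and 63.8 CPM in siJUN (log2FC -1.14, SE 0.0685, adjusted p = 1.96e-15). COL18A1, a basement membrane collagen gene whose product yields endostatin, was at 94.7, 94.2 and 105 CPM in siCtl and 60.2, 52.2 and 71.2 CPM in siJUN (log2FC -0.69, SE 0.0723, adjusted p = 2.42e-09). COL4A5 was at 197, 177 and 186 CPM in siCtl and 133, 113 and 135 CPM in siJUN (log2FC -0.56, SE 0.0616, adjusted p = 6.63e-09). Each of the 3 separated the groups fully. THBS2 fell too (-0.58), but its groups overlapped, with replicate 3 highest in both, and it was not called without the pairing (adjusted p = 0.371). Fibrillar collagen genes fell little, COL3A1 by 0.31 and COL1A2 by 0.25, and COL1A1 was at -0.31 without a call. The 5 rises were BGN (0.68), THBS1 (0.65), VCAN (0.43), COL12A1 (0.23) and EFEMP1 (0.18), named after their values were seen. Without the pairing 4 of the list fell and 1 rose, and leaving out siJUN replicate 2 left 3 rises. The calls of COL3A1 (adjusted p = 0.503), COL1A2 (0.169), BGN (0.152), VCAN (0.0906), COL12A1 (0.526) and EFEMP1 (0.366) were lost without the pairing.

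Proteases, integrins and laminins followed the same direction in part. Of 20 tested metalloproteinase and inhibitor genes 8 fell and 1 rose, beside 9.62% and 9.05% of all genes. Without the pairing 3 of them fell and 1 rose. MMP1, the interstitial collagenase gene and a classical AP-1 target, was at 19.5, 20.5 and 12.7 CPM in siCtl and 9.68, 8.64 and 7.30 CPM in siJUN (log2FC -1.04, SE 0.131, adjusted p = 1.26e-07). MMP16, a membrane-bound protease gene, was at 56.9, 58.3 and 46.4 CPM in siCtl and 35.9, 39.3 and 32.0 CPM in siJUN (log2FC -0.59, SE 0.0763, adjusted p = 1.74e-07). ADAM12, at 331, 307 and 402 CPM in siCtl and 248.4, 206 and 275 CPM in siJUN, was lower in each pair (log2FC -0.51, SE 0.0509, adjusted p = 6.01e-10, 0.0774 without the pairing). TIMP3, an inhibitor of these enzymes, was the rise, at 19.4, 18.8 and 26.4 CPM in siCtl and 35.4, 38.0 and 59.1 CPM in siJUN (log2FC 1.02, SE 0.102, adjusted p = 7.32e-10). MMP3, MMP7, MMP10, MMP13, MMP19 and TIMP4 did not pass the filter on low counts, and 2 genes rose without siJUN replicate 1.

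Of 20 tested integrin and laminin genes 6 fell and 1 rose, ITGB5 (0.18), beside 9.62% and 9.05% of all genes. Without the pairing 4 of them fell and 0 rose. ITGB1, the common integrin beta subunit gene, was at 1857, 1888 and 1926 CPM in siCtl and 1496, 1429 and 1507 CPM in siJUN (log2FC -0.36, SE 0.0424, adjusted p = 3.42e-08). Its groups did not overlap. ITGA10, a collagen-binding subunit gene, was at 29.5, 29.4 and 29.7 CPM in siCtl and 14.3, 14.1 and 20.3 CPM in siJUN (log2FC -0.88, SE 0.111, adjusted p = 1.17e-07), and ITGA3, a laminin-binding one, at 441, 382 and 448 CPM in siCtl and 364, 316 and 335 CPM in siJUN (log2FC -0.32, SE 0.0461, adjusted p = 1.23e-06). LAMA3, which encodes a chain of the basement membrane laminin 332, was at 81.6, 71.0 and 89.7 CPM in siCtl and 47.5, 46.5 and 53.2 CPM in siJUN (log2FC -0.71, SE 0.0673, adjusted p = 1.78e-10). The rise of ITGB5 was not called without siCtl replicates 1, 2 or 3 or siJUN replicate 1, each of which left 0 rises in the list. The call of ITGB5 (adjusted p = 0.245) was lost without the pairing.

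The windows of LAMA3 and of LTBP1, a TGF-beta binding protein gene described below, are printed as examples among the falls, chosen after their matches were seen, with the TPA response element and with the CRE-like element in capitals. The letters searched on either strand were TGACTCA, whose other strand reads TGAGTCA, and TGACGTCA, and neither contains the other.
LAMA3 (chr18:23872770-23873019, plus strand): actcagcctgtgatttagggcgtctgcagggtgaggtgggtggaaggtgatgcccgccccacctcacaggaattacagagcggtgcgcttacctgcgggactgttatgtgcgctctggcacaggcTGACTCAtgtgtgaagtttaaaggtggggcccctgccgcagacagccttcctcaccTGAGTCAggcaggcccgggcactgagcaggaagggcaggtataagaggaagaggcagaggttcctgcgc
LTBP1 (chr2:32946703-32946952, plus strand): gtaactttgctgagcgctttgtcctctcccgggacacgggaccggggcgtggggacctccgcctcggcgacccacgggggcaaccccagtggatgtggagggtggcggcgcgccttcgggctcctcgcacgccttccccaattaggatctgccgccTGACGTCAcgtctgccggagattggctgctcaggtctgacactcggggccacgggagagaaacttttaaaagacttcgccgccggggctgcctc
The LAMA3 matches begin 125 and 69 bases before the start that RefSeq gives, which lies inside the longer gene span of the annotation (chromosome 18, 23689443 to 23956222). The LTBP1 match begins 94 bases before the start. The first element was in 2.86% of all windows, 3.88% of those of genes called lower and 2.8% of those of genes called higher. The second was in 3.29%, 1.98% and 3.01%. Either was in 0 of the 7 windows found among the 15 largest falls, which says only that these letters are not in these windows. The windows of JUN, HAS3 and FBN2 held neither, and MMP1 has no window in the table used.

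Of 33 tested classical AP-1 target genes 10 fell and 7 rose (median -0.09), 51.5% called beside 18.7% of all genes. HBEGF, an EGFR ligand gene, was at 12.3, 14.0 and 14.3 CPM in siCtl and 6.34, 5.45 and 6.61 CPM in siJUN (log2FC -1.14, SE 0.154, adjusted p = 4.06e-07). TNC, which encodes the matrix protein tenascin C, was at 106, 89.3 and 119.8 CPM in siCtl and 60.1, 41.4 and 65.3 CPM in siJUN (log2FC -0.93, SE 0.0959, adjusted p = 1.40e-07, 0.0902 without the pairing). Both fell without overlap, as did MMP1. CCND1, the cyclin D1 gene, was higher in each pair, at 91.1, 108 and 66.5 CPM in siCtl and 134, 149.9 and 86.5 CPM in siJUN (log2FC 0.47, SE 0.0721, adjusted p = 5.32e-06), but its groups overlapped and the call was lost without the pairing (adjusted p = 0.461). Without the pairing 3 of the list fell and 0 rose. The number of rises was 4 when siCtl replicate 1, siCtl replicate 3, siJUN replicate 1 or siJUN replicate 3 was left out.

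EGFR itself was at 227, 272.7 and 229 CPM in siCtl and 163, 187 and 146 CPM in siJUN (log2FC -0.55, SE 0.0649, adjusted p = 4.74e-08), lower in all siJUN libraries. Of 6 tested EGFR ligand and receptor genes EGFR and HBEGF fell and NRG1 rose by 0.25, 50% called beside 18.7% of all genes. In the plasminogen system 2 of 11 tested genes fell and 1 rose, 27.3% called beside 18.7% of all genes. ANXA2, a plasminogen receptor subunit gene, fell by 0.21. TFPI2 rose (0.82, adjusted p = 0.0113), but not without siCtl replicate 1 (0.0684) or siJUN replicate 1 (0.0618). The calls of NRG1 (adjusted p = 0.196), ANXA2 (0.261) and TFPI2 (0.212) were lost without the pairing.

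Markers of the mesenchymal state fell more often than they rose. Of 24 tested genes 11 fell and 5 rose (median -0.26), beside 9.62% and 9.05% of all genes. SNAI2, which encodes the EMT factor SLUG, was at 30.0, 26.5 and 40.3 CPM in siCtl and 14.1, 14.7 and 20.2 CPM in siJUN (log2FC -0.98, SE 0.114, adjusted p = 2.73e-08). THY1, the CD90 gene of mesenchymal cells, was at 732, 758 and 821 CPM in siCtl and 466, 486 and 522 CPM in siJUN (log2FC -0.65, SE 0.0463, adjusted p = 1.99e-13). CDH11, a mesenchymal cadherin gene, was at 350.1, 327 and 369 CPM in siCtl and 277, 244.4 and 288 CPM in siJUN (log2FC -0.37, SE 0.0614, adjusted p = 2.14e-05, 0.138 without the pairing). None of the 3 had overlapping groups. ZEB2 fell by 0.30, whereas ZEB1 (0.18), TWIST1 (0.23), AXL (0.27) and the N-cadherin gene CDH2 (0.26) rose. ACTA2, the smooth muscle actin gene, was the fifth rise, at 134, 134 and 286 CPM in siCtl and 199.8, 189.8 and 384 CPM in siJUN (log2FC 0.50, SE 0.0623, adjusted p = 8.40e-08), with replicate 3 highest in both groups, and without the pairing it was not called (adjusted p = 0.668). VIM was at 0.01. Leaving out siCtl replicate 3 reduced the rises to 3, and without the pairing 3 members fell and 1 rose. The calls of ZEB2 (adjusted p = 0.125), ZEB1 (0.327), TWIST1 (0.113) and AXL (0.144) were lost without the pairing.

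Epithelial genes moved both ways. Of 15 tested genes 8 rose and 4 fell (median 0.52), 80% called beside 18.7% of all genes. Without the pairing 8 rose and 1 fell. CDH1, the E-cadherin gene, was at 4.803, 4.77 and 8.65 CPM in siCtl and 13.1, 14.1 and 16.6 CPM in siJUN (log2FC 1.28, SE 0.160, adjusted p = 9.47e-08). MAL2, an apical transport gene, was at 6.71, 6.41 and 6.66 CPM in siCtl and 21.2, 12.5 and 12.2 CPM in siJUN (log2FC 1.197, SE 0.1703, adjusted p = 1.18e-06), and KRT7, a simple epithelial keratin gene, at 42.4, 36.0 and 61.5 CPM in siCtl and 89.6, 99.3 and 109.9 CPM in siJUN (log2FC 1.11, SE 0.152, adjusted p = 2.42e-04). The levels of CDH1 and MAL2 remained low, and all 3 genes separated the groups. KRT18 (1.67), KRT8 (1.33) and DSP (1.22) rose too, named after their values were seen. The falls were in OCLN, at 13.7, 15.5 and 14.4 CPM in siCtl and 9.33, 9.39 and 10.2 CPM in siJUN (log2FC -0.59, SE 0.123, adjusted p = 3.78e-04), KRT19 (-1.04), CLDN4 (-0.86) and ELF3 (-0.75). The number of falls was 2 without siCtl replicate 2, siCtl replicate 3 or siJUN replicate 2, and 1 without siJUN replicate 1. EPCAM, CLDN7, GRHL2, ESRP1, ESRP2, ST14 and RAB25 did not pass the filter on low counts in the experiment. The calls of KRT19 (adjusted p = 0.0743), CLDN4 (0.0982) and ELF3 (0.398) were lost without the pairing.

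Among genes that report YAP and TEAD activity and among immediate early genes more were called higher than lower. Of 23 tested YAP/TEAD readout genes 14 rose and 2 fell (median 0.27), 69.6% called beside 18.7% of all genes. Without the pairing 8 rose and 0 fell. CRIM1 was at 239.6, 261.4 and 270.4 CPM in siCtl and 370.2, 399 and 373 CPM in siJUN (log2FC 0.56, SE 0.0558, adjusted p = 5.59e-10). DLC1, a GTPase activating protein gene, was at 27.9, 37.5 and 31.9 CPM in siCtl and 56.9, 59.6 and 48.2 CPM in siJUN (log2FC 0.76, SE 0.0846, adjusted p = 7.96e-09). CYR61, a matricellular protein gene and textbook YAP target, was at 258.9, 372 and 377 CPM in siCtl and 406, 481 and 507 CPM in siJUN (log2FC 0.48, SE 0.0621, adjusted p = 6.66e-07, 0.0582 without the pairing). All siJUN libraries lay above all siCtl libraries in these 3 genes. RBMS3 rose by 0.69 and CTGF by 0.67, while YAP1 (0.09) and WWTR1 (0.00) were not called. The falls were TGFB2 (-0.73) and GADD45A (-0.36). GADD45A was not called without siCtl replicate 1 (0.0773), siCtl replicate 2 (0.0669) or siJUN replicate 1 (0.111). The calls of CTGF (adjusted p = 0.114), TGFB2 (0.0656) and GADD45A (0.0626) were lost without the pairing.

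Of 21 immediate early genes 10 rose, 1 fell and 10 were not called (median 0.32), 52.4% called beside 18.7% of all genes. KLF2, a Krüppel-like factor gene, was at 1.99, 1.15 and 1.21 CPM in siCtl and 5.74, 2.93 and 4.14 CPM in siJUN (log2FC 1.55, SE 0.305, adjusted p = 2.02e-04). ZFP36L1, which encodes a destabiliser of AU-rich mRNAs, was at 269.99, 242.8 and 304 CPM in siCtl and 359.6, 332 and 382 CPM in siJUN (log2FC 0.40, SE 0.0520, adjusted p = 2.36e-07). TRIB1, a pseudokinase gene, was the fall, at 43.0, 47.3 and 51.1 CPM in siCtl and 35.2, 30.5 and 36.4 CPM in siJUN (log2FC -0.47, SE 0.0853, adjusted p = 5.66e-05). In these 3 the groups did not overlap. EGR1 rose by 0.45 with overlap, and MYC was at 0.04 without a call. The number of rises was 6 without siCtl replicate 1 or siJUN replicate 3 and 4 without the pairing. Of 20 genes of MAP kinase phosphatases and feedback 1 fell and 4 rose, 25% called beside 18.7% of all genes. The median was -0.01, and 15 were not called. The fall was DUSP1 (-0.43), with 2 falls without siCtl replicate 1. SPRY4 (0.93), SPRY2 (0.43), ETV5 (0.35) and ETV4 (0.52) rose and are known, as background, as readouts of the ERK pathway. Against siCtl, siFRA1 raised 9 of the list and lowered 0, beside 12.5% and 12% of all genes (6 and 0 without the pairing). SPRY4 was at 39.8, 38.6 and 46.1 CPM in siCtl and 97.2, 63.7 and 79.8 CPM in siJUN (log2FC 0.93, SE 0.0832, adjusted p = 9.35e-11). The calls of EGR1 (adjusted p = 0.399), SPRY2 (0.0886) and ETV5 (0.0731) were lost without the pairing.

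TGF-beta and BMP genes moved both ways, with 9 of 28 tested genes lower and 8 higher, 60.7% called beside 18.7% of all genes. LTBP1, which keeps latent TGF-beta in the matrix, was at 88.2, 97.8 and 104 CPM in siCtl and 52.1, 49.6 and 66.9 CPM in siJUN (log2FC -0.79, SE 0.0729, adjusted p = 1.16e-10). The ligand genes TGFB2 (-0.73), TGFB1 (-0.25) and TGFB3 (-0.54) and the receptor gene TGFBR1 (-0.39) fell. ID2 (0.46), ID4 (0.71), ID1 (0.35) and ID3 (0.35), targets of BMP signals, rose, and so did the repressor gene SKIL, at 50.8, 51.3 and 59.4 CPM in siCtl and 91.5, 78.7 and 74.5 CPM in siJUN (log2FC 0.60, SE 0.0803, adjusted p = 4.74e-07). Each siJUN library was above each siCtl library in SKIL and below in LTBP1. Of 23 tested Wnt genes 6 fell and 1 rose, 30.4% called beside 18.7% of all genes. There were 2 rises without siCtl replicate 1 or siJUN replicate 2. With all libraries the rise was the receptor gene FZD4, at 19.3, 12.3 and 15.3 CPM in siCtl and 49.1, 32.1 and 35.8 CPM in siJUN (log2FC 1.32, SE 0.113, adjusted p = 2.55e-11). The receptor gene FZD7 was at 32.4, 34.0 and 31.8 CPM in siCtl and 19.7, 22.1 and 19.2 CPM in siJUN (log2FC -0.69, SE 0.0878, adjusted p = 1.41e-07). The inhibitor genes SFRP2 (-0.63) and DKK1 (-0.40) fell with overlapping groups and were not called without the pairing (adjusted p = 0.375 and 0.286). The calls of TGFB1 (adjusted p = 0.15), TGFB3 (0.288), ID1 (0.323) and ID3 (0.503) were lost without the pairing.

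Of 28 glycolysis and hypoxia genes 14 fell and 1 rose (median -0.20), beside 9.62% and 9.05% of all genes. Most of the falls were small. CA12, a membrane carbonic anhydrase gene, was at 63.8, 58.0 and 91.2 CPM in siCtl and 26.6, 22.6 and 48.0 CPM in siJUN (log2FC -1.17, SE 0.0920, adjusted p = 9.94e-12, 0.133 without the pairing), with no overlap. HK1, the main hexokinase gene of most tissues, was at 402, 389.9 and 439 CPM in siCtl and 323, 311 and 339.7 CPM in siJUN (log2FC -0.34, SE 0.0474, adjusted p = 9.23e-07). PGK1 (-0.30) and ENO2 (-0.45) fell with overlapping groups. LDHA (0.04), GAPDH (-0.02) and the glucose transporter gene SLC2A1 (0.00) were not called. The rise was SLC2A3 (0.88), which shares reads with a near-identical copy. Without the pairing 2 of the list fell and 0 rose, and without siJUN replicate 2 it was 9 that fell. No member rose without siCtl replicate 3 or siJUN replicate 3. The calls of PGK1 (adjusted p = 0.376), ENO2 (0.111) and SLC2A3 (0.105) were lost without the pairing.

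Cell cycle genes stayed near 0. Of 32 genes of mitosis 2 rose and 1 fell, and of 34 of the G1/S step and replication 6 rose and 1 fell, with medians of -0.01 and 0.06. The shares called were 9.38% and 20.6%, below and near the 18.7% of all genes. RRM2, a ribonucleotide reductase subunit gene, was at 248.3, 235 and 187 CPM in siCtl and 318, 328 and 226 CPM in siJUN, higher in each pair with overlapping groups (log2FC 0.37, SE 0.0534, adjusted p = 1.37e-06, 0.212 without the pairing). CCNE2 rose by 0.38 and CDK4 fell by 0.23, and no gene of either list was called without the pairing. The number of rises among the G1/S genes was 3 without siCtl replicate 1 or siJUN replicate 1. Among the mitosis genes BUB1 and TTK rose and UBE2C fell. There the rises were 0 without siCtl replicate 1 or 3 or siJUN replicate 1 or 2 and 4 without siJUN replicate 3, and the falls 0 without siCtl replicate 1 or siJUN replicate 2 and 2 without siCtl replicate 2 or siJUN replicate 3. The calls of CCNE2 (adjusted p = 0.0569), CDK4 (0.0554), BUB1 (0.284), TTK (0.569) and UBE2C (0.136) were lost without the pairing.

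**Figure D4:**
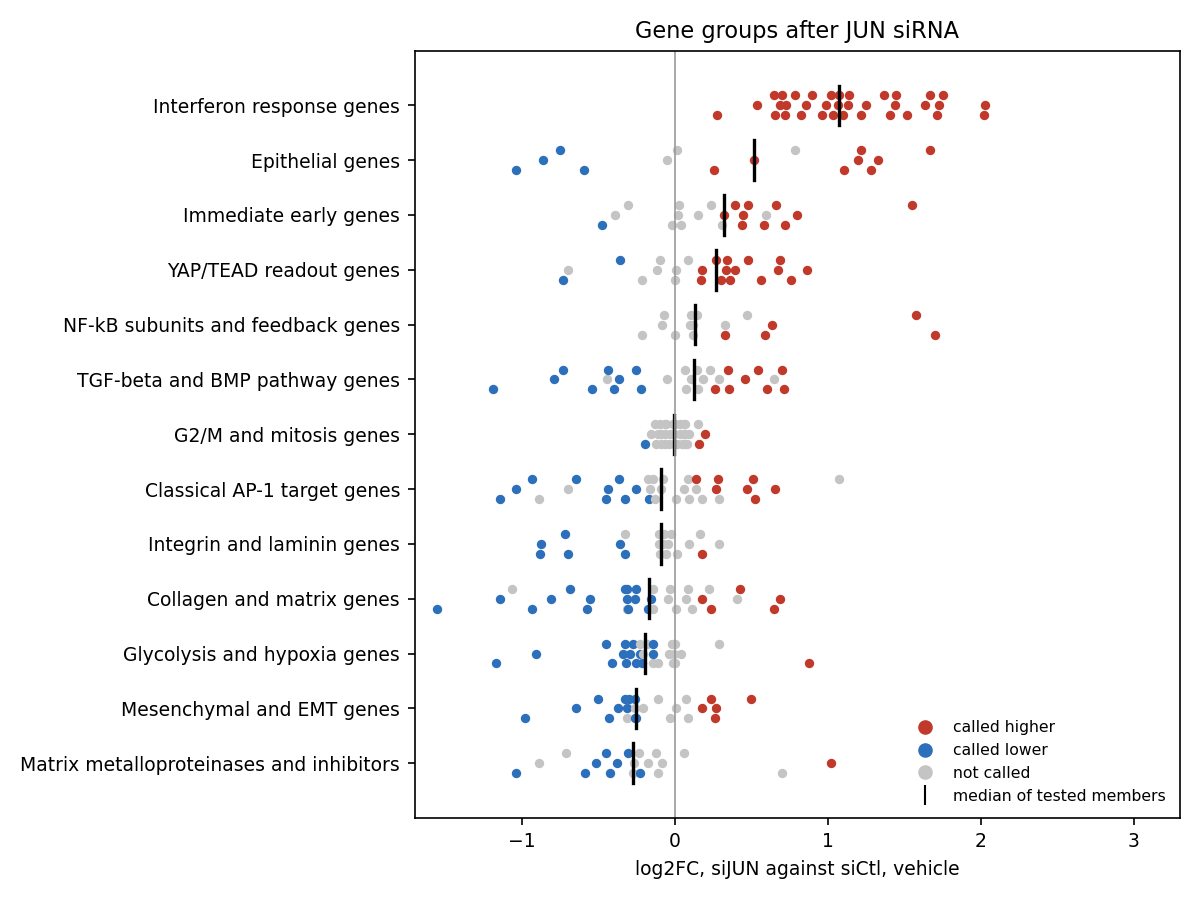
Fitted log2FC of siJUN against siCtl in vehicle for each tested member of 13 gene lists, red where called higher, blue where called lower and grey where not called, with the list's median as a black line. Interferon response genes lie wholly to the right of 0, mitosis genes cluster at 0, and the matrix, protease, mesenchymal and glycolysis lists have most of their called members to the left.

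Which of these changes differ from knockdown of FRA1 was asked by comparing siJUN with siFRA1 directly, both with vehicle. There 1316 genes were higher in siJUN and 1486 lower, 9.64% and 10.9% of those tested (513 and 644 without the pairing). Both siRNAs share the siCtl libraries, so their effects are only set side by side: of the 1236 genes that siJUN raised over siCtl, 430 were also higher than in siFRA1, 70 were lower and 736 were not called. Of the 1314 that it lowered, 514 were lower than in siFRA1, 53 higher and 747 not called. Both sets were chosen for their values in the same siJUN libraries that this comparison uses. The splits are therefore tilted in advance and cannot be read against the shares of all genes.

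HBEGF stood farthest apart on the low side. It was at 12.3, 14.0 and 14.3 CPM in siCtl, 6.34, 5.45 and 6.61 CPM in siJUN and 27.6, 32.8 and 32.9 CPM in siFRA1, so siJUN lay below and siFRA1 above the control (log2FC -2.34, SE 0.141, adjusted p = 1.06e-15 for siJUN against siFRA1). TGFB2, at 54.1, 46.9 and 63.4 CPM in siFRA1, had the same order (log2FC -1.72, SE 0.132, adjusted p = 6.23e-10), as did INHBB, an activin subunit gene (-2.05). PRSS35 (-2.00) was called on the same sides of siCtl, but there siJUN and siCtl overlapped. WNT2B (-1.75) and PTGES, a prostaglandin E synthase gene (-1.62), were also lower, but siJUN was not called against siCtl in them. DHRS2 (-1.97) was called above siCtl with either siRNA.

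On the high side FOSL1, the target of the other siRNA, led (1.98). ACTA2 was at 65.7, 48.3 and 114 CPM in siFRA1, below siCtl, while siJUN was called above siCtl with overlap (log2FC 1.78, SE 0.0665, adjusted p = 7.36e-22, 0.0665 without the pairing). FGF1 (1.84), the ephrin receptor gene EPHA7 (1.62) and CPM, here the carboxypeptidase M gene (1.56), were called higher in siJUN than in siCtl as well. TEK, the angiopoietin receptor gene, was at 7.02, 6.71 and 2.96 CPM in siJUN and 1.51, 2.69 and 1.52 CPM in siFRA1 (1.52). EGR3 (1.79) and CAP2 (1.49) completed the 8, without a call of siJUN against siCtl.

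**Figure D5:**
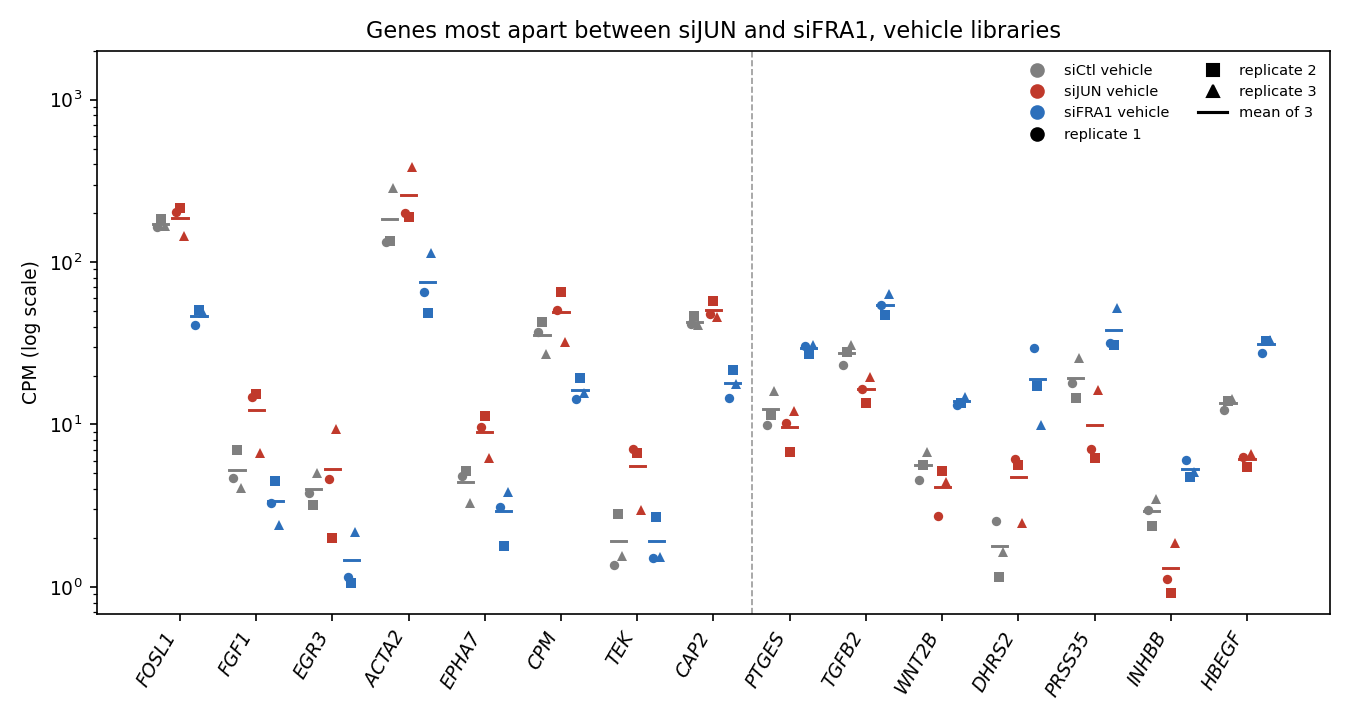
CPM on a log scale in the 3 vehicle libraries each of siCtl (grey), siJUN (red) and siFRA1 (blue) for 8 of the genes most higher (left of the dashed line) and 7 of those most lower (right of it) in siJUN than in siFRA1, with a line at each mean. In HBEGF and TGFB2 all siJUN libraries lie below and all siFRA1 libraries above those of siCtl.

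Over all genes 9.64% were higher in siJUN than in siFRA1 and 10.9% lower. Among the lists, 12 of 35 interferon response genes were higher in siJUN than in siFRA1 and 0 lower (median 0.45). Without the pairing edgeR called 0 of them, with 4 higher and 0 lower at an unadjusted p under 0.05. Against siCtl, siFRA1 raised 33 of them, beside 12.5% of all genes, with a median of 0.65, and siJUN 35 with a median of 1.07, and without the pairing these were 2 and 17. GBP4 was at 45.7, 27.2 and 35.4 CPM in siFRA1, between siCtl and siJUN. Of 32 collagen and matrix genes 19 were lower in siJUN than in siFRA1 and 1 higher (median -0.28), 4 and 0 without the pairing. COL18A1 (-0.79), THBS2 (-0.75, adjusted p = 0.203 without the pairing) and TNC (-0.47, 0.385) were among those, while FBN2 was not called (-0.16, adjusted p = 0.117). SNAI2 was at 29.4, 27.5 and 50.1 CPM in siFRA1, near siCtl, and its difference from siJUN was called (log2FC -1.11, SE 0.112, adjusted p = 1.24e-09). HAS3 was at 206, 189 and 212 CPM in siFRA1 and also lower in siJUN (-0.90), whereas BAALC was higher in siJUN than in siFRA1 (0.76, 0.0637 without the pairing).

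Of 19 actin and SRF target genes 12 were higher in siJUN than in siFRA1 and 2 lower (4 and 0 without the pairing). Over all genes that comparison called 9.64% higher and 10.9% lower (513 and 644 genes without the pairing). Against siCtl, siJUN raised 5 and lowered 3, 42.1% called beside 18.7% of all genes. MYL9, a myosin light chain gene, was at 133, 116 and 214 CPM in siCtl and 194, 208 and 310.5 CPM in siJUN (log2FC 0.64, SE 0.0870, adjusted p = 2.12e-05, 0.314 without the pairing), and its log2FC for siFRA1 was -0.32. TAGLN had 0.64 with siJUN and -0.44 with siFRA1. The 3 falls of siJUN against siCtl were 1 without siCtl replicate 1 or siJUN replicate 2 and 0 without siCtl replicate 2. Of 25 cholesterol synthesis and uptake genes 17 were higher in siJUN than in siFRA1 and none lower (3 higher without the pairing). But against siCtl siJUN raised 3 and lowered 2, 20% called and near the 18.7% of all genes. HMGCS1, the gene of an early enzyme, was at -0.03 with siJUN and -0.46 with siFRA1. IDI1 (0.23) and TM7SF2 (0.50) were among the rises with siJUN. The rises were 5 without siCtl replicate 2, and the falls, LSS and SREBF2, were 1 without siCtl replicate 1 or 2, 0 without siJUN replicate 1 or 2 and 4 without siJUN replicate 3. Without the pairing edgeR called 0 genes of the actin list and 0 of the cholesterol list against siCtl.

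Whether the changes recur with hormone was read in the siJUN and siCtl libraries with DEX. These are other libraries than the vehicle ones, but they share the fit and the replicate numbers with them, and same-numbered siJUN libraries with and without DEX deviated together (r of 0.452, 0.492 and 0.637), so the values below are a description and not an independent repeat. JUN was at 192, 197 and 260.8 CPM in siCtl and 49.3, 55.6 and 88.7 CPM in siJUN there (log2FC -1.76, SE 0.147, adjusted p = 5.65e-06). With DEX 1116 genes were called higher and 1227 lower, 8.17% and 8.98% of those tested. Of the 1236 genes higher with vehicle 758 (61.3%) were called higher with DEX and 0 lower, and 96.2% had the same sign. Of the 1314 lower with vehicle 815 (62%) were called lower and 0 higher, and 96.3% had the same sign. Among the 11108 genes not called with vehicle 65.6% had the same sign and 6.93% were called with DEX. Of the 187 and 74 that changed at least 2-fold 143 and 52 were called again.

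All 35 interferon response genes were called higher with DEX too, with a median of 1.14, and 17 without the pairing. GBP4 was at 10.99, 6.70 and 10.2 and 102, 54.2 and 42.6 CPM (2.79), close to its change with vehicle. HAS3 was at 271.5, 256.4 and 266.4 and 140.0, 120.4 and 137 CPM (-1.003). RSPO2 was at 409, 363 and 367 and 214, 168 and 184 CPM (-1.01), well above its vehicle levels in both groups. HBEGF was at 4.22, 4.32 and 6.45 and 3.66, 4.70 and 4.11 CPM and was not called (-0.25, adjusted p = 0.435), and the difference from vehicle was not called either (0.39). KCNJ12, which fell by 1.23 with vehicle, had 0.03 with DEX, without a call of the difference (adjusted p = 0.228).

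The test of the difference between the DEX and the vehicle effect called 3 genes in each direction, 0.022% of those tested each way and 0.0439% together, with 835 at an unadjusted p under 0.05. Of these, NFIL3 (difference 0.53) and DKK1 (0.48) fell with vehicle and were not called with DEX. ZFP36L1 (-0.36) and FAM214B (-0.43) rose with vehicle and were not called with DEX, and ZCCHC6, the TUT7 uridylyltransferase gene, fell with DEX alone (-0.47, difference -0.48). Without the pairing no gene was called by edgeR, with 378 at an unadjusted p under 0.05, and DESeq2 with the pairing called 9. The number was 21 without siJUN replicate 3, 1 without siCtl DEX replicate 1, 2 without siJUN replicate 2, and 3 without siJUN replicate 1 or siJUN DEX replicate 3.

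Over the 18 libraries of the experiment, the 4 genes whose log2 CPM followed JUN most closely were ZCCHC14 (Pearson r = 0.943), GXYLT2 (0.931), NDUFA7 (0.926) and SLAIN2 (0.924). These libraries share the siRNA groups, so the values only describe a shared pattern. With vehicle ZCCHC14 was at 109, 106 and 112 CPM in siCtl and 70.2, 67.2 and 74.9 CPM in siJUN (log2FC -0.62, SE 0.0728, adjusted p = 2.42e-08). GXYLT2, a xylosyltransferase gene that acts on Notch, was at 46.8, 52.9 and 55.6 CPM in siCtl and 28.8, 32.5 and 37.3 CPM in siJUN (log2FC -0.66, SE 0.0840, adjusted p = 1.35e-07). In siFRA1 their log2FC was -0.15 and -0.10.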

How the data were processed

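The labels' protocols describe Tri-reagent extraction, depletion of ribosomal RNA and paired-end sequencing, although the labels of this experiment name the molecule as polyA RNA. The tools featureCounts, SAMtools, bcl2fastq and DESeq2 and the builds hg38 and GRCh38 come from the submitters' processing notes. The deposited values are raw read counts per gene symbol, made from primary STAR alignments per the file headers. Neither versions nor annotation nor strand setting is stated in the sources used here, so genes with antisense partners or near-identical copies are uncertain. The library number in each file header differs by a constant 200 from the file's own number, and tables were assigned by the sample they belong to in the deposit. A further table equal to a siCtl library was not used (1 table).

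The fit took all 18 libraries of the AP-1 experiment in edgeR 4.0.16 (R 4.3.3): filterByExpr, TMM factors, a mean per group, replicate number as block, and the robust quasi-likelihood test, two-sided, with Benjamini-Hochberg adjustment over the 13658 genes tested. The biological coefficient of variation was 5.57%, and 9.8% without the block. Same-numbered libraries deviated together in all 45 pairs of libraries from different groups (r from 0.13 to 0.64, against -0.59 to 0.24 for other numbers), and 18 of 18 libraries correlated best with their own number, so the numbers were taken to pair them. Total counts in the experiment were 10186607 to 16352524. No pair of replicates repeated a library (chi-square per degree of freedom of 4.06 or more). The labels do not say how replicates were made, so p-values measure only the spread between these samples, which may be technical. CPM use TMM-scaled totals. The SE is the absolute log2FC divided by the square root of the quasi-likelihood F statistic.

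Named genes were JUN and the AP-1 family, the 15 called genes with the largest and with the lowest log2FC among those that reached 5 CPM in their higher group without overlap of replicates, up to 4 called genes per list with the lowest adjusted p, 8 each way for siJUN against siFRA1 and for the interaction, and the 4 genes most like JUN. Others are said to be chosen after their values were seen or stand for a list's other members. The comparison, the 35 gene lists and these rules were chosen with earlier results of these data known. Some genes that met the rules are not reported here, though counts over lists include them. No set test was made. Alternatives were no block, DESeq2 1.42.0, library totals, other filters, the 6 libraries alone, edgeR's glmTreat at a fold of 1.2 and leaving out each library. Scripts were tested on simulated counts. Coordinates are from GENCODE on GRCh38, promoters from RefSeq on GRCh38.p14.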

Additional observations from a re-analysis of the deposited data

Results flagged for a closer look

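In 5 genes described here the siJUN effect with DEX differed from that with vehicle by edgeR's interaction test. The difference on the log2 scale was 0.53 in NFIL3 (adjusted p = 0.0134) and 0.48 in DKK1 (0.0103), and -0.48 in ZCCHC6 (0.0103), -0.43 in FAM214B (0.0475) and -0.36 in ZFP36L1 (0.0475). NFIL3 was at 62.6, 65.6 and 77.5 CPM in siCtl and 55.1, 48.2 and 56.9 CPM in siJUN with vehicle, and at 63.3, 61.0 and 64.9 and 69.7, 66.5 and 77.4 CPM with DEX, so the groups lie in opposite order. ZCCHC6 was at 75.6, 72.1 and 68.7 and 74.4, 75.1 and 69.2 CPM with vehicle and at 149, 134 and 129 and 102, 101 and 95.1 CPM with DEX, apart only in the latter. ZFP36L1 was at 611, 637 and 653 and 688, 606 and 665 CPM with DEX, where the groups overlap. None of the 5 was called without the replicate block.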

How the results depend on the processing

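Without the replicate block siJUN against siCtl gave 503 genes higher and 429 lower (931 of these 932 also called with it), siJUN against siFRA1 513 and 644, and the interaction 0. With the 6 vehicle libraries alone and no block it was 416 and 350, and glmTreat at a fold of 1.2 gave 395 and 309; the test there is stricter by construction. The interaction called 34 genes with no filter on low counts, where more genes are tested. Leaving out 1 library gave 839 to 1262 genes higher and 909 to 1430 lower against siCtl, 891 to 1298 and 1091 to 1468 against siFRA1, and 1 to 21 for the interaction. DESeq2 gave 1128 higher and 1130 lower and library totals 1299 and 1256. Of 158 named genes called, 96 kept their call without the block, 156 with DESeq2, 158 with library totals, 105 with glmTreat and 146 to 153 with 1 library left out, and 0 reversed under any of these. The cause of the lost calls was not tested. Genes with few counts are poorly measured at this depth: TINAGL1 had 0 counts over the siCtl group and 28 in siJUN.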

Other observations

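In the gene groups not described above genes were called in both directions, to be read beside the 18.7% of all genes called either way. Of 24 SWI/SNF subunit genes 4 were called lower and 2 higher (25% in all), DPF3 first at 18.8, 17.9 and 15.4 CPM in siCtl and 9.16, 11.7 and 8.18 CPM in siJUN (log2FC -0.84, SE 0.141, adjusted p = 1.91e-05), and the number lower was 2 without any one of siCtl replicates 1 to 3 or siJUN replicates 1 and 2, and the number higher 0 without siCtl replicate 1 or 3 or siJUN replicate 1. Of 21 tested NRF2 target genes 3 rose and 4 fell (33.3%). Their log2FC lay between -1.47 and 0.55, with a median of 0.03. NQO1, a rise, was at 653, 589.6 and 691 CPM in siCtl and 825, 728 and 906 CPM in siJUN. Its log2FC was 0.34 (SE 0.0472, adjusted p = 5.62e-07). Without the pairing 1 NRF2 target gene rose and 1 fell. With the pairing the falls were 2 without siCtl replicate 1 or siJUN replicate 1 or 3. Of 28 stress and unfolded protein response genes 6 rose and 6 fell (42.9%). The endoplasmic reticulum chaperone gene HSP90B1 (-0.28) and MANF (-0.31) fell and the serine synthesis gene PSAT1 rose (0.33). The rises were 2 without siCtl replicate 1 or siJUN replicate 1 and 3 without siCtl replicate 3, and the falls 3 without siJUN replicate 2. Of 26 tested glucocorticoid-induced genes 4 rose and 5 fell without hormone (34.6%), and 5 rose and 2 fell without the pairing. The log2FC of that list lay between -1.87 and 1.57, with a median of -0.01. One of the rises, TSC22D3, was at 1.09, 1.64 and 2.08 CPM in siCtl and 3.51, 3.27 and 3.85 CPM in siJUN (log2FC 1.13, SE 0.223, adjusted p = 2.09e-04). Of 15 tested heat shock genes 4 rose and 1 fell (33.3%), but 1 rose without siCtl replicate 2 and 2 without siJUN replicate 2, and 0 fell without siCtl replicate 2 or siJUN replicate 3. Of 27 p53 target and CDK inhibitor genes 3 rose and 2 fell (18.5%, near that of all genes), with 1 fall without siCtl replicate 1 or 2 or siJUN replicate 1. Without the pairing edgeR called 0 SWI/SNF genes higher and 1 lower, and among the stress genes 0 and 3. For the heat shock genes the counts were 0 and 0, and for the p53 list 2 and 1. The calls of HSP90B1 (adjusted p = 0.06) and PSAT1 (0.285) were lost without the pairing.

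Of 14 tested clustered histone genes edgeR and DESeq2 called 0, with 2 higher and 0 lower at an unadjusted p under 0.05, HIST1H2BJ having the lowest p (log2FC 0.91, adjusted p = 0.077). Among non-polyadenylated and mitochondrial RNAs RN7SK was at 82.5, 67.0 and 97.2 CPM in siCtl and 107, 94.8 and 104 CPM in siJUN (log2FC 0.32, SE 0.0691, adjusted p = 6.11e-04, 0.14 without the block), and its part in the other results was not tested. The summed level of that list was 396.2, 278.9 and 333.8 CPM in siCtl and 342.9, 278.7 and 362.5 CPM in siJUN, so replicate 2 was lowest in both groups. At most 3 counts stood over the siCtl group in VCAM1 (1 count, 25 in siJUN, ratio 25.7 with a 0.95 exact interval of 4.22 to 1060) and in CEACAM1 (3 and 36, ratio 12.4, 3.91 to 62.7). These intervals cover counting error only and leave out the spread between replicates.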
